A study of Mus musculus with 12 samples.

Results

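The TGF-beta ligand, receptor and latency genes were followed in the lactating and the involuting mouse mammary gland, with and without JNK in the mammary epithelium. The set is 10 genes among 37754 gene models with an FPKM value: the ligands Tgfb1, Tgfb2 and Tgfb3, the receptors Tgfbr1, Tgfbr2 and Tgfbr3, and the latent TGF-beta binding protein genes Ltbp1, Ltbp2, Ltbp3 and Ltbp4. They were found by exact gene symbol in the deposited table, and each has a gene model that carries no other symbol. All 10 reached 0.5 FPKM in at least 3 libraries, so all were among the 14512 gene models tested. RNA of whole glands was sequenced on involution days 0 and 3, with 3 libraries in each of 4 groups. JNK WT mice carried the Wap-Cre transgene alone, and JNK KO mice carried Wap-Cre with floxed alleles of Mapk8 (JNK1) and Mapk9 (JNK2). All were C57BL/6 females with a single parity, bred at 10 to 12 weeks of age, which nursed for 9 days before the pups were removed. Wap-Cre acts in the mammary epithelium from lactation on, so fibroblasts, adipocytes, vessels and immune cells of JNK KO glands keep both genes. In such whole-gland RNA, fewer cells of a type and less RNA per cell cannot be told apart.

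TGF-beta is secreted in a latent form, in which the mature dimer stays bound to its own propeptide. In most cells the propeptide is disulphide-linked to a latent TGF-beta binding protein, which places the complex in the extracellular matrix on fibrillin microfibrils. Integrins, thrombospondin and proteases can release the ligand. It then binds the type II receptor (Tgfbr2), which phosphorylates the type I receptor (Tgfbr1) and through it SMAD2 and SMAD3, while betaglycan (Tgfbr3) presents the ligand, TGF-beta 2 above all. In the mammary gland TGF-beta signalling is known to restrain epithelial growth and milk production, and Tgfb3 is known as a ligand induced early after weaning by milk stasis.

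FPKM are fragments per length of transcript and number of mapped fragments, and the table holds no depth of a library. Values of most genes were higher on day 3, when the milk protein mRNAs took 1.61% to 6.14% of the FPKM sum in JNK WT glands and 8.85% to 39.1% in JNK KO glands, against 57.3% to 77.1% on day 0. The antigen receptor genes moved the other way, from 11.02% to 27.3% of the sum on day 0 to 66.0% to 74.0% in JNK WT and 28.4% to 72.7% in JNK KO glands on day 3. Over all tested genes the median log2 difference, day 3 minus day 0, was 2.37 without and 1.68 with the JNK deletion, and between the genotypes on day 3 it was -0.48. Each result is therefore given as deposited and after median ratio scaling, which divides a library by its median ratio to the average library and brings those medians to 0.07, 0.05 and 0.01. Library 1 of the JNK WT day 0 group stood apart, with correlations across genes of 0.861 and 0.851 with its group against 0.950 between the other two. On day 3 every JNK KO library was below every JNK WT library for Mapk8 (1.25 to 3.57 against 6.57 to 7.90 FPKM) and Mapk9. On day 0 the JNK KO library 3 had 2.78 FPKM of Mapk8 as deposited, above all JNK WT libraries (1.95 to 2.65 FPKM). Its Mapk9 level, 8.78 FPKM, lay within the JNK WT range of 2.48 to 10.2 FPKM. The study describes the libraries of a group as independent and from separate mice, which the labels do not state.

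The sequences upstream of the transcription start are shown for Ltbp1, the gene on which the day 3 genotype comparison turned, and for Tgfb1 and Ltbp3, which moved with it between the days in both genotypes. They are the 250 bases before the start in RefSeq on GRCm38.p6, written 5′ to 3′. Capitals mark matches on either strand to TGANTCA, TGACGTCA (the cyclic AMP response element), GGGCGG (the GC box), CCAAT (the CCAAT box) or TATAAA (the TATA box). TGANTCA is a loose form of the AP-1 site, with any base (N) in its centre. The AP-1 site is bound by JUN, the substrate that gave JNK its name. The paper also counts some ATF factors in the AP-1 family, and TGANTCA does not stand for every site of that family.
Ltbp1, upstream start, chr17:75005279-75005528, plus strand: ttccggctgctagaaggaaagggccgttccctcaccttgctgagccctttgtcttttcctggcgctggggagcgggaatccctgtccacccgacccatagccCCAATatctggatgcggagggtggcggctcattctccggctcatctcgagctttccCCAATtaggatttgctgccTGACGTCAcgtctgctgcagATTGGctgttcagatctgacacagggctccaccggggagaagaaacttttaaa
Ltbp1, downstream start, chr17:75178531-75178780, plus strand: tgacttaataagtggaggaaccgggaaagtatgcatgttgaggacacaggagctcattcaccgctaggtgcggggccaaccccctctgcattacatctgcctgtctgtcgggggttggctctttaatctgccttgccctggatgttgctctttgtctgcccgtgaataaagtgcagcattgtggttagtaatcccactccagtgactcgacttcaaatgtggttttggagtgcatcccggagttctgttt
Tgfb1, chr7:25686752-25687001, plus strand: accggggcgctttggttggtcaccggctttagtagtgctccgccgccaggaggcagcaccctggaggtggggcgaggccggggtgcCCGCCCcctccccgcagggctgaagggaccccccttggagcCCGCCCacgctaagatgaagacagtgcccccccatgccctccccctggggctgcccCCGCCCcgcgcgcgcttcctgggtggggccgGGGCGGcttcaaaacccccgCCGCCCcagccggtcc
Ltbp3, chr19:5740650-5740899, plus strand: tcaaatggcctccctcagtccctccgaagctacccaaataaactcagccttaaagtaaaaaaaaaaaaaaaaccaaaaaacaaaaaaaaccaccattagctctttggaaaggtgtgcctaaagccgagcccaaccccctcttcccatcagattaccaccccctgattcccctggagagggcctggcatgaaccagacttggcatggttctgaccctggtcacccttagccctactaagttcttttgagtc
Ltbp1 has 2 starts in RefSeq, which are those of its long and short forms, and the FPKM of the gene do not separate them.

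Of the 10 genes, 8 have at least 1 start in the RefSeq table, with 12 starts in all. The upstream start of Ltbp1 held TGACGTCA from position -73 to -66, counted back from -1 at the base before the start, and CCAAT boxes in 3 places, and its downstream start held none of the capitalised motifs. TGACGTCA was in 1.55% of the 32851 upstream windows of the table and in no other window of the set. No window of the set held TGANTCA, which 6.75% of all windows held, nor the SMAD palindrome GTCTAGAC (0.167%) or the STAT site TTCNNNGAA (7.02%). The Tgfb1 window was 75.2% G or C with 5 matches to GGGCGG, a motif in 32.7% of all windows, whereas the Ltbp3 window was 47.2% G or C with none. The further motifs searched were CCAAT (33.8% of all windows), TATAAA (12.4%), CAGACA (17.1%) and CACGTG (6.02%), and TATAAA was matched in the set only by Tgfb2, 26 to 31 bases before its start. Some matches to the GC box overlap each other in Ltbp4. A match is a run of letters and was not measured as a bound site.

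Tgfb3 had the highest FPKM of the 10 genes on day 3 in both genotypes, with the lowest library above the highest library of any other member. Tgfb3, the ligand named above for its response to milk stasis, was at 1.29, 2.58 and 3.64 FPKM in the JNK WT libraries on day 0, 5.14, 3.19 and 4.56 FPKM in the JNK KO libraries on day 0, 99.2, 95.8 and 95.3 FPKM in JNK WT glands on day 3 and 132, 104 and 124 FPKM in JNK KO glands on day 3. Every day 3 library was above every day 0 library, and the JNK KO libraries of day 3 were all above those of JNK WT. As deposited Tgfb3 rose by 5.33 on the log2 scale in JNK WT glands (standard error 0.33, adjusted p = 1.16e-06) and by 4.79 in JNK KO glands (standard error 0.33, adjusted p = 3.02e-06), all adjusted p here being limma values after Benjamini-Hochberg adjustment across the 14512 gene models. After median ratio scaling the rises were 2.87 (adjusted p = 2.54e-05) and 3.04 (adjusted p = 3.86e-05). The gene lies on chromosome 12 of GRCm38. Its gene model in the table runs from 85824659 to 86079041, over 254383 bases against 22297 in GENCODE, because it extends over Ttll5, a gene of the opposite strand that overlaps the 3′ end of Tgfb3. The strand setting of the authors' counting is not given in the sources used here, so reads of the overlap cannot be assigned to either gene. Ttll5, which has a row of its own, was at 0.494 to 2.28 FPKM on day 0 and 2.45 to 5.11 FPKM on day 3, below Tgfb3 in every library.

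Tgfb1, the ligand with the widest expression and the one most used by immune and stromal cells, also rose in both genotypes under either scale. Tgfb1 was at 0.658, 1.70 and 2.46 FPKM in the JNK WT libraries on day 0, 3.45, 2.37 and 2.19 FPKM in the JNK KO libraries on day 0, 28.5, 28 and 58.8 FPKM in JNK WT glands on day 3 and 17.2, 27.5 and 32.9 FPKM in JNK KO glands on day 3. Every day 3 library was above every day 0 library, while the genotypes overlapped on day 3 and on day 0. As deposited its log2 rise in JNK WT glands was 4.58 (standard error 0.45, adjusted p = 4.05e-06) and that in JNK KO glands 3.21 (standard error 0.45, adjusted p = 8.05e-05), and 2.15 (adjusted p = 0.000432) and 1.47 (adjusted p = 0.00597) after scaling. Tgfb1 lies on chromosome 7 from 25687002 to 25705077. The JNK WT library 12 was the highest on day 3, at 58.8 FPKM.

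Tgfb2, the ligand that depends most on betaglycan for binding, had the lowest FPKM of the 3 ligands. Tgfb2 was at 0.0385, 0.477 and 0.587 FPKM in the JNK WT libraries on day 0, 2.05, 0.805 and 0.737 FPKM in the JNK KO libraries on day 0, 4.48, 3.70 and 3.49 FPKM in JNK WT glands on day 3 and 4.88, 2.38 and 3.96 FPKM in JNK KO glands on day 3. The JNK WT library 1 of day 0, the library that stood apart, was the lowest at 0.0385 FPKM, and every JNK KO library of day 0 was above every JNK WT library. As deposited Tgfb2 rose by 3.38 in JNK WT glands (standard error 0.57, adjusted p = 0.000133) and by 1.65 in JNK KO glands (standard error 0.57, adjusted p = 0.0189). After scaling the differences were 1.35 (adjusted p = 0.108) and -0.02 (adjusted p = 0.987), so neither change of Tgfb2 passed relative to most genes. The JNK KO call was also lost, as deposited, when JNK KO library 2 or 3 of day 0, or library 3 or 6 of day 3, was left out, with adjusted p from 0.0532 to 0.0680.

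**Figure D1:**
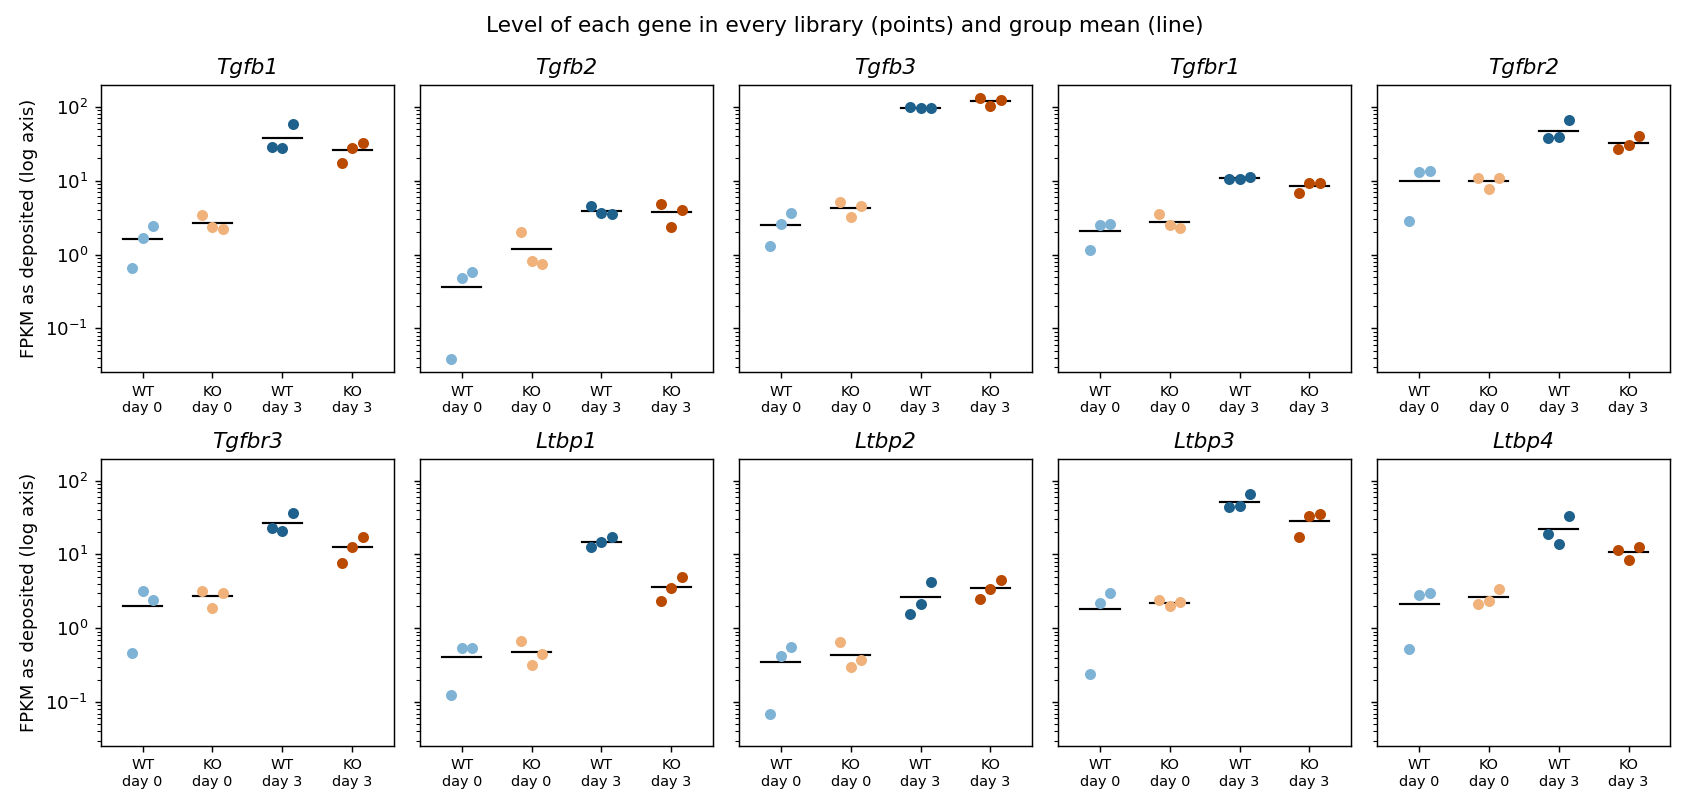
FPKM as deposited on a log axis for each of the 10 genes, with a point for each library (3 per group, in the order of the column numbers) and a line at the group mean. Day 3 libraries lie above day 0 libraries for every gene, Tgfb3 reaches 95.3 to 132 FPKM on day 3, and Ltbp1 shows the widest day 3 gap between the genotypes.

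The signalling receptors Tgfbr1 and Tgfbr2 followed the bulk of the genes from day 0 to day 3. Tgfbr2, the ligand-binding type II receptor kinase, was at 2.87, 13 and 13.7 FPKM in the JNK WT libraries on day 0, 10.9, 7.60 and 10.9 FPKM in the JNK KO libraries on day 0, 38.4, 38.7 and 65.6 FPKM in JNK WT glands on day 3 and 26.5, 30.4 and 40.9 FPKM in JNK KO glands on day 3. The day 0 values of Tgfbr1, the type I receptor kinase, were 1.17, 2.53 and 2.6 FPKM in JNK WT glands and 3.59, 2.50 and 2.26 FPKM in JNK KO glands, and the day 3 values were 10.6, 10.6 and 11.4 FPKM in JNK WT glands and 6.80, 9.40 and 9.38 FPKM in JNK KO glands. Every day 3 library was above every day 0 library of its genotype for both genes. As deposited Tgfbr2 rose by 2.51 in JNK WT (standard error 0.50, adjusted p = 0.000449) and 1.72 in JNK KO glands (standard error 0.50, adjusted p = 0.00753), and Tgfbr1 by 2.40 (standard error 0.32, adjusted p = 2.41e-05) and 1.59 (standard error 0.32, adjusted p = 0.000811). After scaling, the differences of Tgfbr2 were 0.03 and -0.04 and those of Tgfbr1 -0.04 and -0.14, with adjusted p of 0.675 to 0.963. Tgfbr2 lies on chromosome 9 from 116087698 to 116175363 and Tgfbr1 on chromosome 4 from 47353222 to 47414931.

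Betaglycan differed from the signalling receptors in JNK WT glands. Tgfbr3, which encodes betaglycan, was at 0.458, 3.17 and 2.45 FPKM in the JNK WT libraries on day 0, 3.19, 1.90 and 3.03 FPKM in the JNK KO libraries on day 0, 23.0, 20.7 and 36.7 FPKM in JNK WT glands on day 3 and 7.77, 12.7 and 17.2 FPKM in JNK KO glands on day 3. Every day 3 library was above every day 0 library, and on day 3 every JNK KO library was below every JNK WT library. In JNK WT glands Tgfbr3 rose by 3.96 as deposited (standard error 0.57, adjusted p = 3.96e-05) and by 1.55 after scaling (standard error 0.43, adjusted p = 0.0178). Its rise in JNK KO glands was 2.13 as deposited (standard error 0.57, adjusted p = 0.00464), with 0.40 after scaling (standard error 0.43, adjusted p = 0.559). The difference between these changes was -1.83 as deposited (standard error 0.80, adjusted p = 0.255) and -1.15 after scaling (adjusted p = 0.452) and did not pass by limma. Tgfbr3 lies on chromosome 5 from 107106570 to 107289629.

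Among the latent TGF-beta binding protein genes, Ltbp3 and Ltbp1 rose in both genotypes as deposited and after median ratio scaling. With each library scaled to a common sum without milk and antigen receptor genes, neither passed in JNK KO glands (2.17, adjusted p = 0.0597 for Ltbp3 and 1.37, adjusted p = 0.0964 for Ltbp1). Ltbp3, whose product is known to aid secretion of latent TGF-beta, was at 0.239, 2.2 and 3.03 FPKM in the JNK WT libraries on day 0, 2.39, 2.0 and 2.25 FPKM in the JNK KO libraries on day 0, 44.0, 45.5 and 66.1 FPKM in JNK WT glands on day 3 and 17.1, 33.6 and 35.2 FPKM in JNK KO glands on day 3. Every day 3 library was above every day 0 library, and the JNK KO libraries of day 3 were below those of JNK WT. Ltbp3 rose by 5.24 in JNK WT (standard error 0.65, adjusted p = 1.41e-05) and 3.57 in JNK KO glands (standard error 0.65, adjusted p = 0.000417) as deposited, and by 2.88 (adjusted p = 0.00217) and 1.83 (adjusted p = 0.0326) after scaling. Ltbp3 lies on chromosome 19 from 5740904, and its gene model in the table extends past the GENCODE end at 5758532, so reads from beyond that end cannot be told apart from its own.

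Ltbp1, which targets latent TGF-beta to fibrillin and fibronectin in the matrix, was the member with the largest difference between the genotypes on day 3. Ltbp1 was at 0.127, 0.549 and 0.535 FPKM in the JNK WT libraries on day 0, 0.675, 0.318 and 0.450 FPKM in the JNK KO libraries on day 0, 12.6, 14.6 and 17.2 FPKM in JNK WT glands on day 3 and 2.34, 3.56 and 4.99 FPKM in JNK KO glands on day 3. The genotypes overlapped on day 0, and on day 3 the highest JNK KO library was at 4.99 FPKM and the lowest JNK WT library at 12.6 FPKM. Between the days Ltbp1 rose by 5.02 in JNK WT (standard error 0.44, adjusted p = 2.52e-06) and by 2.66 in JNK KO glands (standard error 0.44, adjusted p = 0.000219) as deposited. After scaling the rises were 2.79 (standard error 0.33, adjusted p = 0.000174) and 1.06 (standard error 0.33, adjusted p = 0.0444). Ltbp1 lies on chromosome 17 from 75005568 to 75392512.

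Ltbp4 and Ltbp2 rose as deposited but not after scaling. Ltbp4, which is needed for elastic fibre assembly and carries mainly TGF-beta 1, was at 0.519, 2.81 and 2.99 FPKM in the JNK WT libraries on day 0, 2.14, 2.35 and 3.44 FPKM in the JNK KO libraries on day 0, 18.7, 13.8 and 33.3 FPKM in JNK WT glands on day 3 and 11.5, 8.31 and 12.5 FPKM in JNK KO glands on day 3. The day 0 values of Ltbp2, the family member that does not bind latent TGF-beta, were 0.0696, 0.426 and 0.559 FPKM in JNK WT glands and 0.645, 0.302 and 0.366 FPKM in JNK KO glands, and the day 3 values were 1.58, 2.13 and 4.20 FPKM in JNK WT glands and 2.52, 3.42 and 4.46 FPKM in JNK KO glands. Day 3 libraries were all above day 0 libraries for both genes, and Ltbp2 had the lowest mean of the 10 genes in each of the 4 groups. The rises of Ltbp4 were 3.54 in JNK WT (standard error 0.55, adjusted p = 6.69e-05) and 1.99 in JNK KO glands (standard error 0.55, adjusted p = 0.00545) as deposited, with 1.12 (adjusted p = 0.0720) and 0.26 (adjusted p = 0.721) after scaling. The rises of Ltbp2 were 2.70 (standard error 0.52, adjusted p = 0.000370) and 2.74 (standard error 0.52, adjusted p = 0.000569), with 0.62 (adjusted p = 0.308) and 1.16 (adjusted p = 0.0931) after scaling. Ltbp4 lies on chromosome 7 from 27305136 to 27337692 and Ltbp2 on chromosome 12 from 84783212 to 84878132.

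Counted together, 10 of 10 members rose between the days in JNK WT glands as deposited, where 91.5% of all genes tested rose, and 10 of 10 rose in JNK KO glands, where 80.0% rose. All 10 had every day 3 library above every day 0 library in both genotypes, as did 90.6% of all genes in JNK WT and 84.0% in JNK KO glands. These counts are near those of the whole table. After median ratio scaling 5 members rose in JNK WT glands (Tgfb1, Tgfb3, Tgfbr3, Ltbp1 and Ltbp3) against 19.3% of all genes, and 4 rose in JNK KO glands (Tgfb1, Tgfb3, Ltbp1 and Ltbp3) against 11.5%. None fell. The median over the 10 genes was 3.75 in JNK WT and 2.40 in JNK KO glands as deposited, beside medians of all genes of 2.37 and 1.68. With scaling and without the JNK WT day 0 library 1, the same 5 genes rose in JNK WT glands, and Ltbp2 joined the 4 in JNK KO glands (1.16, adjusted p = 0.0121).

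**Figure D2:**
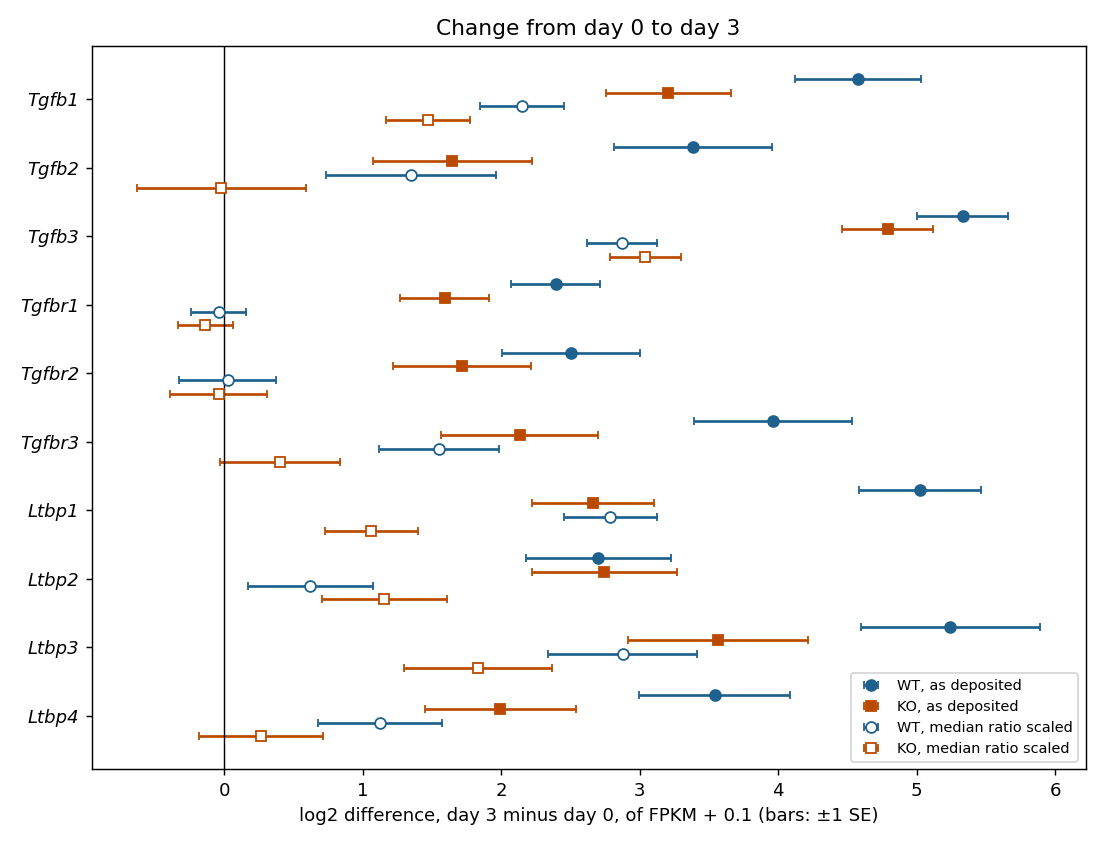
Log2 difference of FPKM + 0.1 between day 3 and day 0 for each gene, with bars of 1 standard error, in JNK WT (circles) and JNK KO glands (squares), as deposited (filled) and after median ratio scaling (open). As deposited all values lie between 1.59 and 5.33, and after scaling Tgfbr1 and Tgfbr2 lie near 0 while Tgfb3 stays near 3.

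Between the genotypes on day 0, no member passed the test as deposited or after scaling, and of all genes 0.0138% passed in either direction on each scale. At an unadjusted p under 0.05 by limma, 2 members were past as deposited, as were 3.10% of all genes: Tgfb2 with a log2 difference of 1.63 in JNK KO glands (standard error 0.57, adjusted p = 0.810) and Tgfb3 with 0.84 (standard error 0.33, adjusted p = 0.810). Tgfb2 was above in every JNK KO library, as were 4.05% of all genes, and after scaling Tgfb2 and Tgfb3 were, as were 4.18%. After scaling 3 members were past at that unadjusted threshold, as were 6.48% of all genes, with 1.75 for Tgfb2, 0.65 for Tgfb3 and 0.66 for Tgfb1 (adjusted p = 0.638). Without the JNK WT library 1, in which Tgfb2 was lowest, the differences as deposited were 0.90 for Tgfb2 and 0.45 for Tgfb3. Without the JNK KO library 3, whose Mapk8 level as deposited was above all JNK WT libraries, they were 1.87 and 0.79 (adjusted p = 0.962 for both).

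On day 3, Ltbp1 was lower in JNK KO glands by a log2 difference of -2.05 as deposited (standard error 0.44, adjusted p = 0.0246), the only member past the threshold, where 5.62% of all genes passed as lower and 0.544% as higher. After median ratio scaling the difference was -1.52 (standard error 0.33, adjusted p = 0.0804) and no member passed, while 0.117% of all genes were called lower and 0.338% higher. With scaling and without the JNK WT day 0 library 1, a fit chosen after the data were seen, Ltbp1 passed again at the same value of -1.52 (standard error 0.23, adjusted p = 0.0110). As deposited the call of Ltbp1 was lost without any of the JNK WT day 3 libraries 3, 6 and 12 or the JNK KO day 3 libraries 3 and 4, at values from -2.16 to -1.77 with adjusted p from 0.0633 to 0.117. Every such value kept the JNK KO level below.

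The other members differed less on day 3. Tgfbr3 was at -1.12 (standard error 0.57, adjusted p = 0.242), Ltbp4 at -0.94 (standard error 0.55, adjusted p = 0.295) and Ltbp3 at -0.90 (standard error 0.65, adjusted p = 0.385) as deposited, with -0.60, -0.43 and -0.39 after scaling. Tgfb3 was at 0.30 (standard error 0.33, adjusted p = 0.547) as deposited and 0.81 after scaling (standard error 0.26, adjusted p = 0.167), and Ltbp2 at 0.46 and 0.92 (adjusted p = 0.404). Tgfb1 and Tgfbr2 were at -0.53 and -0.52 as deposited and at -0.02 and -0.01 after scaling, and Tgfb2 and Tgfbr1 turned from -0.11 and -0.36 to 0.38 and 0.15. Without the JNK WT day 0 library 1, which lies outside this comparison but enters the shared spread, Tgfbr3 and Ltbp3 also passed as lower as deposited (adjusted p = 0.0378 and 0.0461).

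Libraries did not overlap on day 3 for 6 members as deposited. Tgfbr1, Tgfbr3, Ltbp1, Ltbp3 and Ltbp4 were lower in every JNK KO library, as were 43.9% of all genes, and Tgfb3 was higher in every JNK KO library, as were 2.81%. After scaling, Tgfbr3, Ltbp1 and Ltbp3 were lower in every JNK KO library (15.2% of all genes) and Tgfb3, Tgfbr1 and Ltbp2 were higher (17.7%). The smallest two-sided p of an exact permutation test on 3 and 3 libraries is 0.1. Tgfb3 was thus above in every JNK KO library on both scales, and Tgfbr3, Ltbp1 and Ltbp3 were below on both, whereas the order of Tgfbr1 turned with the scaling.

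**Figure D3:**
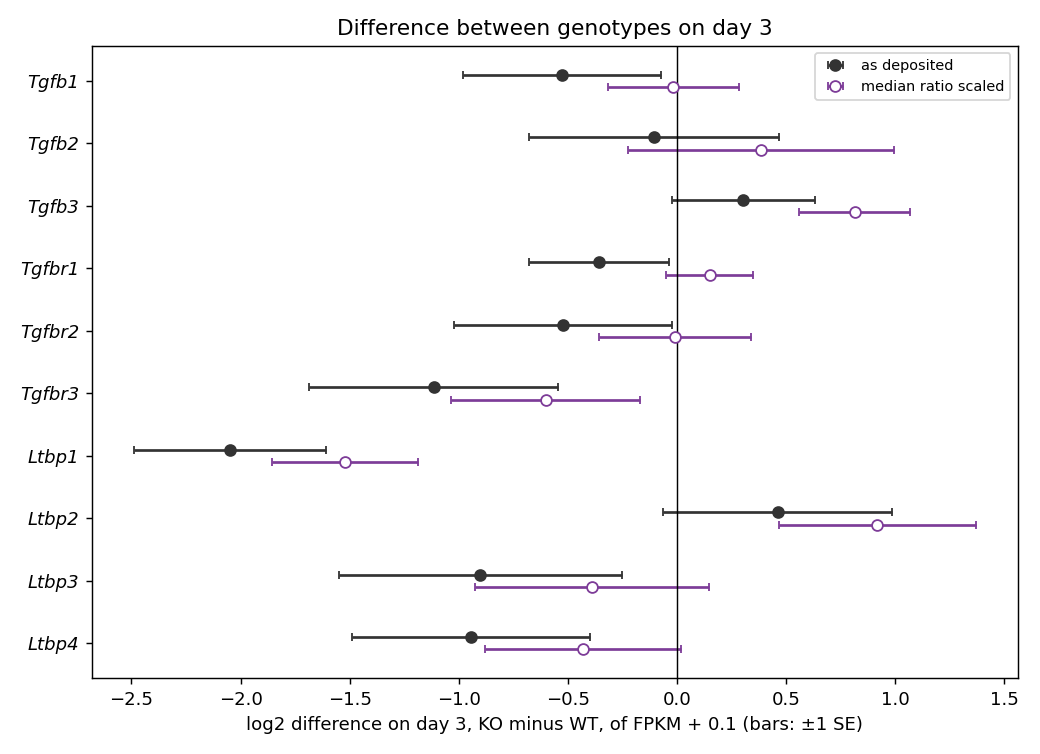
Log2 difference of FPKM + 0.1 on day 3, JNK KO minus JNK WT, with bars of 1 standard error, as deposited (filled) and after median ratio scaling (open). Ltbp1 lies farthest from 0, at -2.05 and -1.52, and scaling moves every gene to the right.

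The test of the difference between the genotypes' changes called no member as deposited or after scaling, and 0.0138% of all genes on each scale. At an unadjusted p under 0.05 by limma, 2 of 10 members were past as deposited, Ltbp1 at -2.36 (standard error 0.62, adjusted p = 0.10) and Tgfbr3, a share near the 18.6% of all genes. After scaling 1 member was past, as were 13% of all genes, with Ltbp1 at -1.73 (standard error 0.47, adjusted p = 0.225). With a pseudocount of 1 in place of 0.1 Ltbp1 passed, at -1.89 (adjusted p = 0.0241). For Tgfb3 the difference was -0.54 as deposited and 0.17 after scaling, and for Ltbp2 it was 0.04 and 0.54.

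Levels of several cell types' markers moved with the day 3 difference of Ltbp1, and their part in it was not tested. Marker sums were lower in every JNK KO library of day 3 for adipocytes (5 markers, 477 to 1115 against 1530 to 4343 FPKM), pericytes (4 markers, 21.4 to 30.4 against 84.1 to 231 FPKM), macrophages (4 markers, 41.8 to 103 against 119 to 268 FPKM) and skeletal muscle (3 markers, 0.374 to 76.5 against 308 to 4746 FPKM). Of all single genes, 43.9% were lower in every JNK KO library as deposited. Most of the adipocyte sum was Cfd (412 to 931 against 1288 to 3652 FPKM), and Lep overlapped between the genotypes. Among the macrophage markers Adgre1 and Mrc1 overlapped, whereas Cd68 and Csf1r did not. The pericyte difference was carried by Des, also a muscle gene (0.941 to 6.76 against 21.3 to 204 FPKM), and Rgs5, Pdgfrb and Cspg4 overlapped between the genotypes. The fibroblast sum (6 markers) overlapped, at 225 to 501 against 474 to 1318 FPKM, but Dcn (37.5 to 122 against 179 to 332 FPKM), Lum (18.2 to 35.9 against 47.8 to 110.2 FPKM) and Dpt (17.5 to 48.0 against 72.3 to 129 FPKM) were lower in every JNK KO library. Of the 6 markers 2 were called lower as deposited, where 5.62% of all genes were. The endothelial sum (4 markers) overlapped too, at 51.5 to 73.2 against 56.9 to 180 FPKM. The luminal epithelial sum (5 markers) was 951 to 1309 in JNK KO and 948 to 969 FPKM in JNK WT glands. Its markers did not move together. As deposited Elf5 was higher in every JNK KO library (394 to 542 against 235 to 285 FPKM). Epcam (152 to 194 against 230 to 267 FPKM) and Cldn3 (31.6 to 69.3 against 71.2 to 98.1 FPKM) were lower in every one, and Krt8 and Krt18 overlapped. Every marker of these lists was above 0 in every JNK WT library of day 3, and the defining luminal markers were present in all groups, as the label of the tissue states. After scaling the sums stayed lower in every JNK KO library for adipocytes (346 to 584 against 655 to 1553), pericytes (14.8 to 15.6 against 30.1 to 99.1) and skeletal muscle (0.196 to 37.4 against 110.0 to 2003). Those of macrophages overlapped (30.3 to 50.4 against 49.7 to 96.0), as did those of fibroblasts (163 to 245 against 197 to 471), and the luminal epithelial sums were higher in every JNK KO library (498 to 749 against 339 to 415). None of the 5 luminal markers was called between the genotypes on day 3 on either scale. The myoepithelial sum (5 markers) overlapped on day 3, at 175.24 to 227.74 against 227.66 to 412.11 FPKM, and also after scaling. Of its markers Krt5 (18.1 to 26.7 against 37.3 to 70.2 FPKM) and Oxtr (8.11 to 15.6 against 24.5 to 32.0 FPKM) were lower in every JNK KO library as deposited. Krt14, Acta2 and Myh11 overlapped, and none of the 5 was called on either scale. Which cells made the RNA of Ltbp1 and the other members was not measured.

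Shares within a family do not depend on the scaling between libraries. Ltbp1 took 16.4%, 19.2% and 14.3% of the summed FPKM of the 4 Ltbp genes in the JNK WT libraries of day 3 and 6.99%, 7.29% and 8.72% in the JNK KO libraries. On day 0 its share was 7.53% to 13.3% in JNK WT and 6.40% to 11.5% in JNK KO glands, so the JNK KO shares of day 3 lay within the range of day 0. Ltbp2 had the reverse order on day 3, at 2.06% to 3.48% in JNK WT and 7.0% to 7.81% in JNK KO glands. Ltbp3 took 25.1% to 42.6% on day 0 and 51.1% to 68.7% on day 3 over both genotypes, and Ltbp4 went from 36.6% to 54.4% on day 0 to 17.0% to 34.4% on day 3, with no overlap between the days.

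Among the ligands, Tgfb3 took 54.3% to 64.9% of the summed FPKM on day 0 and 60.5% to 75.2% on day 3 in JNK WT glands. In JNK KO glands its share was 48.3% to 60.9% on day 0 and 77.1% to 85.7% on day 3, above every JNK WT library of that day. The JNK WT library 12, with the highest Tgfb1, had the lowest Tgfb3 share of day 3. Tgfb2 took 1.94% to 19.2% on day 0 and 1.78% to 3.39% on day 3. Among the receptors, Tgfbr3 took 10.2% to 17.0% in JNK WT and 15.9% to 18.7% in JNK KO glands on day 0, and 29.6% to 32.3% and 18.9% to 25.5% on day 3, where the genotypes did not overlap. Tgfbr2 held 53.4% to 73.1% of the receptor FPKM in every library. With 3 libraries a group, these differences have a smallest exact two-sided permutation p of 0.1 and are given as values.

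**Figure D4:**
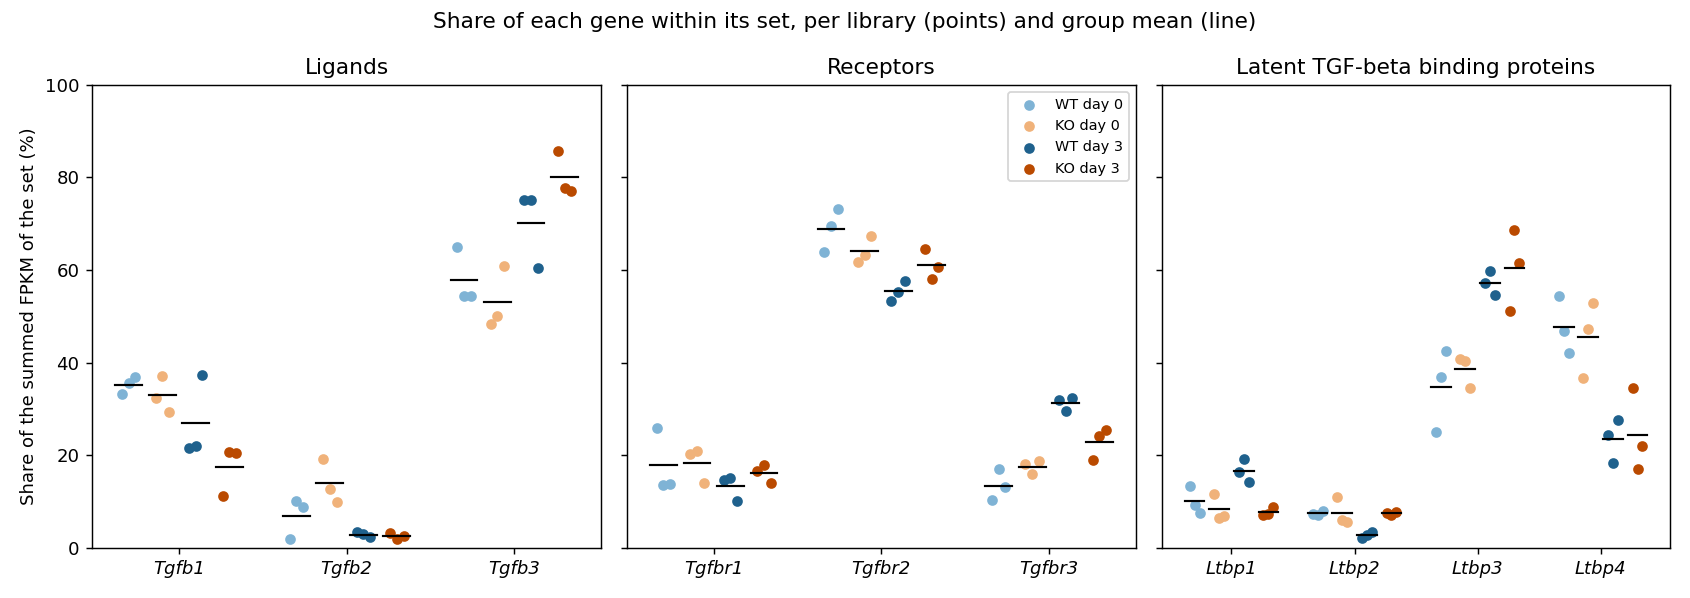
Share of each gene in the summed FPKM of the ligands, the receptors and the latent TGF-beta binding protein genes, in percent, with a point for each library (3 per group) and a line at the group mean. On day 3 the Ltbp1 shares of JNK KO glands lie at 6.99% to 8.72% and those of JNK WT glands at 14.3% to 19.2%, and the Tgfb3 shares of JNK KO glands lie above those of JNK WT glands.

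By mean FPKM, a level per transcript length, the order of the genes changed between the days. On day 0 Tgfbr2 stood at the top (9.85 in JNK WT and 9.81 in JNK KO glands), followed by Tgfb3 (2.50 and 4.30). In JNK KO glands the lowest Tgfbr2 library was above the highest Tgfb3 library, whereas in JNK WT glands they overlapped. On day 3 Tgfb3 stood at the top (96.8 and 120.0), followed in JNK WT glands by Ltbp3 (51.9), Tgfbr2 (47.6) and Tgfb1 (38.4), whose libraries overlapped. Ltbp1 was at rank 7 in JNK WT glands on day 3 (14.8, above the next gene, Tgfbr1, in every library) and at rank 9 in JNK KO glands (3.63), where it overlapped with Tgfb2 (3.74) and Ltbp2 (3.47).

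The genes with the most similar patterns were sought among 11695 gene models with a mean of at least 1 FPKM. The measure was the Pearson correlation of scaled log2 values over the 12 libraries, which fall into 2 days. For Tgfb3 the most similar genes were Basp1 (r = 0.990), Sbsn (0.987) and Shisa5 (0.985). For Tgfb1 they were Hs1bp3 (0.990), Icam1 (0.987) and 2310022B05Rik (0.985). For Ltbp1 they were Dclk1 (0.976), Rnf125 (0.976) and Tmem229b (0.974), and Rnf125 averaged 0.820 and 1.04 FPKM on day 0 and 25.0 and 7.80 FPKM on day 3, JNK WT first. For Tgfb2 they were Zfp574 (0.952), Zfp143 (0.935) and Bcl9l (0.927).

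Of 14 genes listed for the release of TGF-beta from latency, 14 rose in JNK WT and 11 in JNK KO glands as deposited, near the 91.5% and 80.0% of all genes. After scaling JNK WT glands had 10 that rose and 1 that fell, and JNK KO glands 6 and 1, where 19.3% and 11.5% of all genes rose. These shares of all genes are the background of the counts of each further list. Thbs1, whose product thrombospondin-1 activates latent TGF-beta, rose by 5.40 in JNK WT and 5.59 in JNK KO glands, and by 3.21 and 3.87 after scaling. It was at 22.6 to 36.2 FPKM in JNK WT and 87.3 to 208 FPKM in JNK KO glands on day 3, with no overlap, though the difference of 2.18 (standard error 0.99, adjusted p = 0.198) did not pass. Mmp14, a membrane-bound metalloprotease, rose by 5.33 in JNK WT glands, and Lrrc32, which encodes the anchor GARP of regulatory T cells, by 3.31 in JNK KO glands. On average Mmp14 went from 1.42 to 58.6 FPKM in JNK WT and from 1.87 to 17.9 FPKM in JNK KO glands. Lrrc32 went from 0.265 to 7.33 FPKM and from 0.357 to 4.75 FPKM. Here and below, a gene given for 1 genotype had one of the largest called changes there. This does not mean that the other genotype lacked the change. Itgav, the alpha-V integrin chain, fell after scaling, by 1.37 in JNK WT and 0.95 in JNK KO glands. On day 3 Mmp14 was lower in every JNK KO library (10.3 to 24.6 against 33.2 to 107 FPKM). So was Mmp2, another metalloprotease gene of the list (8.34 to 33.3 against 41.5 to 127 FPKM). Neither was called by limma, and 43.9% of all genes were lower in every JNK KO library. Thbs1, as given above, went the other way. The paper's own test called Mmp2, Mmp9 and Mmp14 lower in JNK KO glands on that day. Mmp9, a gelatinase of myeloid cells, was lower without JNK on day 3 (0.373 to 1.12 against 2.18 to 5.06 FPKM, log2 difference -2.14, standard error 0.47, adjusted p = 0.0257), the only call of the list as deposited, and none passed after scaling.

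Of 10 microfibril and elastic fibre genes listed, which include the matrix partners of the latent complexes, 8 were tested and 8 rose in each genotype as deposited, beside 91.5% and 80.0% of all genes. After scaling 6 rose in JNK WT and 5 in JNK KO glands, beside 19.3% and 11.5%. Lox, the collagen and elastin crosslinking enzyme, rose by 4.70 in JNK WT glands and by 2.33 after scaling. Eln, which encodes elastin, rose by 3.88 in JNK KO glands and by 2.19 after scaling, and Mfap5, a microfibril component, by 3.84 and 2.09. Mean FPKM as deposited, JNK WT first, went from 0.670 to 23.5 and from 1.36 to 16.6 for Lox. The means of Eln went from 0.832 to 17.4 and from 0.971 to 16.1, and those of Mfap5 from 4.94 to 57.0 and from 3.53 to 51.1. None of the 8 was called between the genotypes on day 3, where Mfap5 was at -0.04 (standard error 0.40) as deposited and 0.47 after scaling. The medians of the list on day 3 were -0.30 and 0.20, beside -0.48 and 0.01 for all genes.

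The SMAD transducers followed the bulk of genes as Tgfbr1 and Tgfbr2 did. Of 6 listed, 5 were tested and 5 rose in each genotype as deposited, and after scaling 1 rose in JNK WT glands (Smad1, a transducer of bone morphogenetic protein signals, 0.88, adjusted p = 0.0355) and 0 in JNK KO glands. Smad4, the shared SMAD, was at 3.93 and 3.67 FPKM on average on day 0 and 19.3 and 14.6 FPKM on day 3, JNK WT first. Of 10 feedback inhibitors 9 were tested and 9 rose in each genotype as deposited, and after scaling 4 rose in JNK WT glands while in JNK KO glands 2 rose and 1 fell. Ski, a SMAD corepressor, rose by 2.10 after scaling in JNK WT glands, and Tgif1, another corepressor, by 1.31 and Pmepa1 by 0.90 in JNK KO glands, where the ubiquitin ligase gene Smurf2 fell by 0.54. Mean FPKM as deposited, JNK WT first, went from 2.02 to 31.3 and from 2.72 to 18.1 for Ski. The means of Tgif1 went from 1.68 to 25.4 and from 2.51 to 20.5, and those of Pmepa1 from 7.29 to 69.4 and from 8.52 to 55.0. No gene of these lists was called between the genotypes on day 3.

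Of 18 genes known to respond to TGF-beta, 17 rose in each genotype as deposited, beside 91.5% and 80.0% of all genes. After scaling JNK WT glands had 10 that rose and 2 that fell, and JNK KO glands 3 and 1, beside rises of 19.3% and 11.5% of all genes. Ctgf, a matricellular growth factor, rose by 5.94 in JNK WT and 4.32 in JNK KO glands, and by 3.53 and 2.59 after scaling. Tgfbi, a matrix protein named for its induction by TGF-beta, rose by 3.95 and 2.24 in JNK KO glands on the respective scales, and Cdkn1a, which encodes the cell cycle inhibitor p21, by 5.15 and 2.70 in JNK WT glands. Mean FPKM of Tgfbi as deposited went from 0.861 to 30.7 in JNK WT and from 1.47 to 24.3 in JNK KO glands. Those of Cdkn1a went from 2.12 to 78.4 and from 5.61 to 40.1. Tagln, a smooth muscle gene, went the other way after scaling and fell by 1.61 in JNK WT glands. On day 3, Snai2, a transcription factor of mesenchymal and basal cells, was lower in JNK KO glands (1.48 to 3.33 against 5.47 to 7.04 FPKM, -1.32, adjusted p = 0.0356). This was the only call of the 18 genes, a share near the 5.62% of all genes called lower, and after scaling none passed. The list holds Skil and Smad7, which are also among the feedback inhibitors, and Col1a1 and Col1a2, which are also fibroblast markers.

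Of 9 related receptors listed 7 were tested, and 7 rose in JNK WT and 6 in JNK KO glands as deposited. After scaling Acvr2b, an activin type II receptor, rose in both genotypes (1.21 and 1.05), as did Acvrl1, the endothelial receptor ALK1 (0.63 and 1.0), whereas Bmpr1a and Acvr2a fell in JNK WT glands (by 0.78 and 0.72). Of 13 other ligands of the superfamily 8 were tested, and 8 rose in JNK WT glands while 5 rose and 1 fell in JNK KO glands as deposited. Inhbb, which encodes the activin beta-B chain, rose by 6.67 in JNK WT and 5.43 in JNK KO glands, and by 4.58 and 3.98 after scaling. Gdf15, a stress-induced ligand, was lower without JNK on day 3 (0.395 to 0.825 against 1.76 to 13.3 FPKM, -2.48, adjusted p = 0.0434). Mstn, the ligand myostatin of skeletal muscle, was at 0.0344 FPKM or less in JNK KO and 2.08 to 35.8 FPKM in JNK WT glands on day 3 (-6.98, standard error 1.27, adjusted p = 0.0178), where the muscle marker sums differed as given above. These 2 of the 8 tested were the calls of the list on day 3, where 5.62% of all genes were called lower as deposited. Neither passed after scaling.

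The medians of these lists between the days are read beside 2.37 and 1.68 for all genes as deposited and 0.07 and 0.05 after scaling, JNK WT first. The microfibril and elastic fibre genes had medians of 4.08 and 3.42 as deposited and 1.76 and 1.79 after scaling. Those of the release genes were 3.46 and 2.39, with 1.05 and 0.82 after scaling, and those of the responding genes 3.59 and 2.71, with 1.21 and 1.11. The SMAD transducers had 2.36 and 1.57, with -0.11 and -0.14 after scaling. The feedback inhibitors had 3.03 and 1.86, with 0.83 and 0.42 after scaling, and the related receptors 3.07 and 1.52, with 0.74 and -0.21.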

How the data were processed

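The data are RNA-seq of whole mammary glands, with 12 libraries in 4 groups. The authors trimmed reads with Trimmomatic, aligned them to GRCm38 with TopHat2 2.0.14 and Bowtie2, and deposited FPKM of each gene model computed by Cufflinks 2.2.1, with no further scaling between libraries. Columns were matched to groups by name, and library numbers are those of the columns. The table also holds fold changes, p-values and q-values of the authors' own comparison, which were not used. FPKM give no counts, so counting errors could not be computed, and the read totals that the study gives by group were not used here.

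Gene models with at least 0.5 FPKM in at least 3 libraries were kept. Tests used limma 3.58.1 (R 4.3.3) on log2(FPKM + 0.1), with an eBayes trend over the mean and 1 fit of the 4 group means (8 residual and 4.031 prior degrees of freedom). Tests were two-sided, with Benjamini-Hochberg adjustment over all 14512 gene models and a threshold of 0.05, and log2 differences understate changes of genes near 0. The test was tried on simulated data. Alternatives changed the pseudocount, filter, scaling, trend, library weights and groups in the fit, or left out a library. The members and the gene lists were chosen with earlier results of these data known. Every member is named, with, per pathway list and comparison, up to 2 genes in each direction past the threshold with the largest change, or the 2 highest in FPKM where none passed, and, for Tgfb1, Tgfb2, Tgfb3 and Ltbp1, the 3 best correlated genes. Thbs1 on day 3 was named after its values were seen. Some genes that this rule names are not reported here.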

Additional observations from a re-analysis of the deposited data

How the results depend on the processing

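Under median ratio, 75th percentile and common sum scaling (the last without milk and antigen receptor genes) 5, 5 and 5 members rose in JNK WT glands in place of 10, and 4, 4 and 2 in JNK KO glands in place of 10. On day 3 the count of 1 (Ltbp1) went to 0 under each of these scalings and with a pseudocount of 0.01, and to 4 with weights per library, whose estimation stopped before it converged. With a pseudocount of 1 the difference between the changes had 1 member called in place of 0. Leaving out each library gave 0 to 3 members on day 3. With scaling and without the JNK WT day 0 library 1, chosen after the data were seen, 5 and 5 members rose. The cause of these changes was not tested.

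Signs turned as follows. With median ratio scaling, Tgfbr1 was at -0.040 in JNK WT glands between the days, and Tgfbr1, Tgfbr2 and Tgfb2 at -0.14, -0.038 and -0.020 in JNK KO glands, where 75th percentile scaling gave -0.087 for Tgfbr1. On day 3, Tgfb2 was at 0.38, 0.34 and 0.13 under the median ratio, 75th percentile and common sum scalings and Tgfbr1 at 0.15 and 0.10 under the median ratio and 75th percentile scalings. On day 0, Tgfbr2 was at -0.014 with a common sum, and with weights per library Tgfbr2, Ltbp1, Ltbp2, Ltbp3 and Ltbp4 were at -0.38, -0.14, -0.20, -0.13 and -0.034. The difference between the changes turned for Tgfb3 (0.17 and 0.038, median ratio and 75th percentile), Tgfbr2 (0.082, weights) and Ltbp2 (-0.18, pseudocount of 0.01). When each library was left out in turn, day 0 values ranged from -0.46 to 0.65 for Tgfbr2, -0.074 to 1.2 for Tgfbr3, -0.19 to 0.57 for Ltbp1, -0.18 to 0.80 for Ltbp2, -0.22 to 1.38 for Ltbp3 and -0.15 to 1.0 for Ltbp4, each below 0 only without the JNK WT library 1. The day 3 value of Tgfb2 ranged from -0.32 to 0.18 and the difference between the changes of Ltbp2 from -0.34 to 0.64. With median ratio scaling and without the JNK WT day 0 library 1, Tgfbr1 and Tgfbr2 were at -0.15 and -0.45 in JNK WT glands between the days, and Tgfb2, Tgfbr1 and Tgfbr2 at -0.020, -0.14 and -0.038 in JNK KO glands. In that fit Tgfbr2, Tgfbr3, Ltbp1, Ltbp2, Ltbp3 and Ltbp4 were at -0.42, -0.031, -0.17, -0.16, -0.18 and -0.11 on day 0, Tgfb2 and Tgfbr1 at 0.38 and 0.15 on day 3, and the differences between the changes of Tgfb3, Tgfbr1 and Tgfbr2 at 0.32, 0.015 and 0.41.

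No paired analysis was possible because nothing ties the numbers in the column names to the replicates that the labels number. Groups of 3 libraries and FPKM without counts limit the precision, so differences near 1 on the log2 scale were often not detectable.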
